A study of Mus musculus with 12 samples.

Results

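Il4, Il5, Il13, Il4ra, Il13ra1, Il13ra2, Il2rg, Stat6, Gata3 and Tslp encode the cytokines, receptor chains and transcription factors of type 2 immune signalling, and their transcripts were followed in mouse lung after allergen and particle exposure. The 10 genes were chosen by name. Each probe set (a group of short array probes that together give 1 value) was assigned to a gene where the annotation of the array gave it that single symbol. This found 16 probe sets for 9 of the 10 genes, among 18194 genes with such a probe set in all, and Il2rg was not analysed here. Affymetrix whole-genome mouse arrays had been hybridized with RNA from whole lungs of male A/J mice aged 8 to 10 weeks, with 4 groups of 3 arrays, taken on day 4 after the particle dose.

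Control mice received PBS in place of every OVA and particle dose. The OVA group was sensitized with ovalbumin (the model's allergen) at 0.4 mg/kg intraperitoneally, and was challenged with 30 mg/kg intratracheally 14 days later. The PM group aspirated 50 µl of ambient Baltimore particulate matter at 10 mg/ml in PBS without OVA, and the OVA/PM group received both. All 4 groups share the strain, the sex and the PBS vehicle, and whole lung mixes epithelium, vessels and leukocytes. All 6 lung epithelial markers examined lay above the detection floor on every array.

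The names OVA and PM carry a doubt. For Clca1, the chloride channel regulator of mucous cells that the study calls Clca3, the arrays labelled OVA and labelled PM stand in the opposite order to the one the study describes, and the same holds for Itln1, Tff2 and Retnla and for which of the groups had more genes called. For Clca1, Itln1, Tff2 and Retnla the folds that the study prints lie close to those found here once the labels OVA and PM are exchanged. The macrophage markers run with the labels, since the study describes more lavage macrophages after OVA and not after PM. That is a count of lavage cells, while the markers here are RNA of whole lung. The mean log2 intensity of Clca1 was 2.39 in Control, 8.37 under the label OVA and 14.29 under the label PM. Each group below carries its label, so a direction that sets OVA or PM apart rests on that label, and whether the names were exchanged was not settled here. It does not bear on the comparison of OVA/PM with Control. In OVA/PM replicate 3 the BioB and BioC hybridization controls, RNA not from the lung, all read above every other array. This RNA is added before hybridization. BioC-5 read 6.82 against at most 2.77 on the other arrays, and BioB-5 read 5.50 against at most 3.77. The member values for OVA/PM against Control and against PM are therefore also given without that array.

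IL-4 and IL-13, made mainly by T helper type 2 cells and innate lymphoid cells, both signal through the IL-4 receptor alpha chain, encoded by Il4ra. This chain pairs with the common gamma chain (Il2rg) to bind IL-4, or with IL-13 receptor alpha 1 (Il13ra1) to bind IL-4 or IL-13, and the pairs activate Janus kinases that phosphorylate the transcription factor STAT6. In lung this pathway is known for mucous cell change, alternative activation of macrophages and the release of chemokines that attract eosinophils, while IL-5 supports eosinophils and TSLP is an epithelial alarmin that acts through CRLF2 and the IL-7 receptor alpha chain. STAT6 is switched on by phosphorylation, which these arrays do not measure.

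The transcripts of the T helper type 2 cytokines Il4, Il5 and Il13 lay at the detection floor. All values are log2 intensities, and a probe set was placed at the floor where all 12 arrays lay under 4.93, the median of all values of all arrays, as 46.9% of all probe sets did. By this measure 6 of the 16 probe sets were at the floor, and 4 of the 9 genes, Il4, Il5, Il13 and Il13ra2, had no other probe set. The highest value among the 6 was 2.98, which is 1.95 log2 units below the level. A floor value is background that remains after correction, so these probe sets give no level, no order of groups and no fold, and a transcript made by few cells could be missed in whole lung.

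Il4, whose product IL-4 drives T helper type 2 differentiation and the switch to IgE, read 2.05, 2.01 and 2.04 on the Control arrays. It read 2.04, 2.04 and 2.07 on the OVA arrays, 2.04, 2.02 and 2.06 on the PM arrays and 2.06, 2.15 and 2.04 on the OVA/PM arrays. Il5, for the eosinophil growth and survival factor, lay between 1.95 and 2.04 over the 12 arrays. Il13, for the cytokine that drives mucus production and airway hyperresponsiveness, lay between 2.74 and 2.98. Il13ra2, which encodes a receptor that binds IL-13 with high affinity and is known as a decoy, lay between 2.14 and 2.52, with its highest value in OVA replicate 2. The range over all 12 arrays was 0.05 to 0.38 log2 units for the 6 floor probe sets. The other 2 of them were 1 of the 3 probe sets of Il4ra (1447858_x_at, at 1.07 to 1.12) and 1 of the 5 of Il13ra1 (1425625_at, at 2.57 to 2.95), so these genes were read by their remaining probe sets. The suffix x marks probe sets that may also bind other transcripts.

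**Figure D1:**
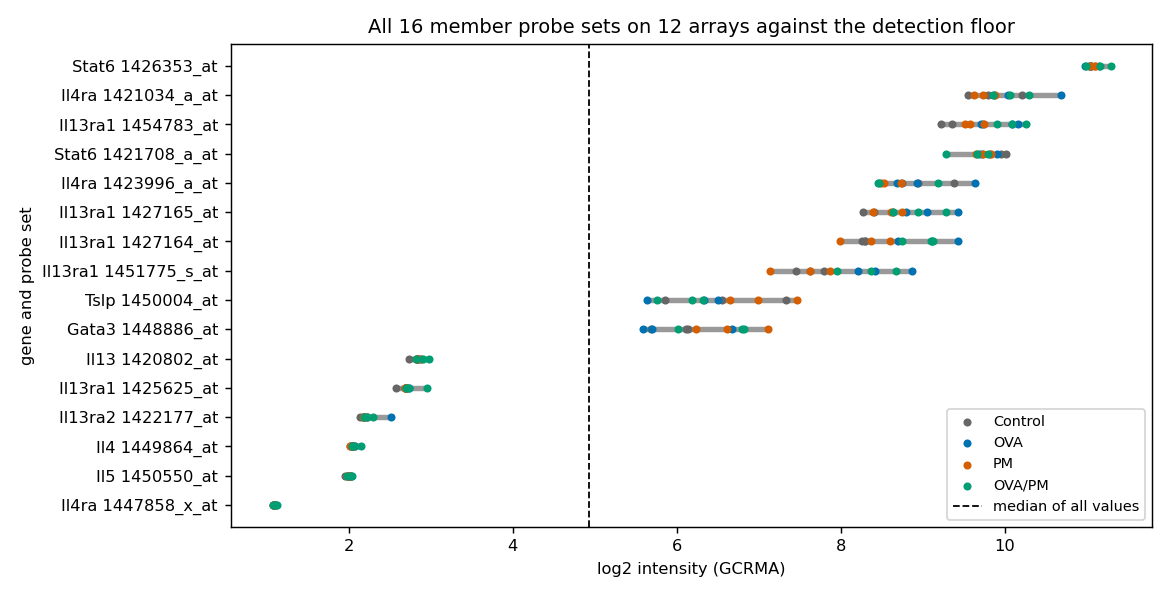
Log2 intensity (x axis) of the 16 member probe sets (rows) on the 12 arrays, with points coloured by group, grey bars for the range and a dashed line at the median of all values (4.93). The 6 probe sets of the floor lie at or under 2.98 and the other 10 lie wholly above the line.

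The remaining 10 probe sets, of Il4ra, Il13ra1, Stat6, Gata3 and Tslp, lay above the level on all 12 arrays and were tested in every comparison. At a stricter level of 8.65, the 75th percentile of all values, 8 of the 16 probe sets lay under it on every array, the added ones being those of Gata3 and Tslp. Il4, Il13 and Il5 lie together on chromosome 11 (53612460 to 53618665, 53631323 to 53634702 and 53720794 to 53725103, build GRCm38.p6). Il4ra lies on chromosome 7 (125552271 to 125579474), Stat6 on chromosome 10 (127642955 to 127660987) and Gata3 on chromosome 2 (9857078 to 9887953). Il13ra1 (36112108 to 36171262) and Il13ra2 (147383478 to 147429192) lie on the X chromosome.

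Tslp aside, the genes at the floor and above it also differ in the sequence before their start sites. The choice of genes did not use this sequence. From the RefSeq promoter table for GRCm38.p6, 10 windows of 250 bases before an annotated start were examined, for 9 of the 10 genes. Tslp was left out of this step, so nothing is said of its promoter. GC content was 70.8% for Il13ra1, 70.0% for Gata3, 59.6% for Il4ra and 56.8% for Stat6, the genes above the floor other than Tslp. The windows of the floor genes held 52.8% and 37.6% (the 2 starts of Il4), 43.2% (Il13), 37.6% (Il5) and 36.0% (Il13ra2), against a median of 52.4% over 32851 windows. The window of Il2rg, which has no place at or above the floor because its transcript was not analysed, held 49.2%. These are descriptions of few genes. The 4 windows below are of IL-4, IL-13 and the chains Il4ra and Il13ra1, which pair to bind both. They are printed with the matches to 3 motifs in capitals. For Il4 the printed start is the one of 37.6%, and the start of 52.8%, near the median, is not printed. The motifs were TTCNNNNGAA (the STAT6 site, the same on both strands), GATA on either strand (read as GATA or TATC) and a TATA box (TATAAA or TATATA on the strand of the gene, whose matches may overlap each other).
Il4, chr11:53618666-53618915, minus strand: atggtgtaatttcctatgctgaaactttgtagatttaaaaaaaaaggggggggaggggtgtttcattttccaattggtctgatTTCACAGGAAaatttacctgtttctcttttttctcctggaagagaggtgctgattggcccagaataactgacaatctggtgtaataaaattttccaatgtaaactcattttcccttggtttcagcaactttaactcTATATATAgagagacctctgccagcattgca
Il13, chr11:53634703-53634952, minus strand: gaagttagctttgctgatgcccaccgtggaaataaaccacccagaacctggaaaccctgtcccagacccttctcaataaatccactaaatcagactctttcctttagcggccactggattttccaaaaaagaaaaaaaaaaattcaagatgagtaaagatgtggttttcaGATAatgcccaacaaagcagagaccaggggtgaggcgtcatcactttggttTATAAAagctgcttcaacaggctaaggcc
Il4ra, chr7:125552021-125552270, plus strand: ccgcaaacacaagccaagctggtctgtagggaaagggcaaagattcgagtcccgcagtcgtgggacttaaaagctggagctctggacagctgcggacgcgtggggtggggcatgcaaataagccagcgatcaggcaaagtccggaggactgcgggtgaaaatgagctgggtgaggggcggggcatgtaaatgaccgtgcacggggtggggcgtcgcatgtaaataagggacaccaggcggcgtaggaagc
Il13ra1, chrX:36111858-36112107, plus strand: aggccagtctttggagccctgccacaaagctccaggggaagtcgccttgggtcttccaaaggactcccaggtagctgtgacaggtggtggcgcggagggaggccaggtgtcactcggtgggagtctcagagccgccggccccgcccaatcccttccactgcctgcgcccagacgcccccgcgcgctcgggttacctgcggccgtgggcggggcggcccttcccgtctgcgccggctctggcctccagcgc

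The STAT6 motif was found in 1 of the 10 member windows, that of Il4 printed here, where it begins 167 bases before the start, and in 5.9% of all windows. A TATA box was found in 3 member windows, of Il4, Il13 and Il13ra2, all genes at the floor, and in 11.5% of all windows, while GATA was found in 5 member windows and in 53.6% of all windows. A match is a run of letters and not a shown site, and no motif in the windows of Il4ra and Il13ra1 says only that these letters are absent from 250 bases.

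Il4ra, the receptor chain shared by IL-4 and IL-13, was detected on every array and did not pass the test in any comparison. Its leading probe set (1421034_a_at, the one of highest mean) read 9.55, 9.80 and 10.21 in Control, 10.68, 9.87 and 10.04 in OVA, 9.63, 9.74 and 9.88 in PM, and 9.86, 10.29 and 10.06 in OVA/PM (log2 intensity). The 4 groups overlapped, with OVA replicate 1 the highest array. Log2 fold changes against Control were 0.34 (95% interval -0.29 to 0.98) in OVA, -0.10 (-0.53 to 0.33) in PM and 0.22 (-0.26 to 0.69) in OVA/PM, with adjusted p = 0.362, 0.901 and 0.463 from limma. These intervals leave room for a rise of up to 1.97-fold in OVA. The second probe set (1423996_a_at) had group means of 9.02 ± 0.32, 9.09 ± 0.49, 8.58 ± 0.13 and 8.70 ± 0.42 (SD, n = 3, in the order Control, OVA, PM, OVA/PM). Its 3 PM arrays, at 8.74, 8.53 and 8.49, lay just under the lowest Control array at 8.75, a log2 difference of -0.44 (SE 0.18) that did not pass (adjusted p = 0.595 from limma). The a suffix marks probe sets that read more than 1 transcript form of a gene.

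Il13ra1, the chain that completes the receptor for IL-13, was higher in OVA and in OVA/PM than in Control, by 1.43- to 1.83-fold on its 4 detected probe sets, and 2 of the 4 passed the test in each comparison (19.2% and 21.7% of all probe sets tested did). Probe set 1427164_at read 8.29, 8.26 and 8.29 on the Control arrays and 9.43, 8.70 and 9.11 on the OVA arrays. It read 8.37, 8.60 and 7.99 on the PM arrays and 8.75, 9.10 and 9.13 on the OVA/PM arrays. Every OVA and every OVA/PM array lay above every Control array and above every PM array. The log2 fold change was 0.80 in OVA (SE 0.18, adjusted p = 0.0346 from limma) and 0.72 in OVA/PM (SE 0.12, adjusted p = 0.0116 from limma). The Control SD of this probe set was 0.02, against 0.21 to 0.37 in the other groups.

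The leading probe set of Il13ra1, 1454783_at, read 9.22, 9.36 and 9.73 in Control, 10.16, 9.71 and 10.09 in OVA, 9.51, 9.75 and 9.57 in PM, and 9.90, 10.09 and 10.26 in OVA/PM. Only the OVA/PM arrays cleared all Control arrays, since OVA replicate 2 lay just below Control replicate 3. The difference passed in OVA/PM (0.64, SE 0.17, adjusted p = 0.0382 from limma) and not in OVA (0.55, SE 0.18, adjusted p = 0.0795 from limma). Probe set 1451775_s_at read 7.62, 7.45 and 7.80 in Control and 8.87, 8.21 and 8.42 in OVA, with no overlap. It passed in OVA (0.87, SE 0.19, adjusted p = 0.0313 from limma) and missed in OVA/PM (0.70, SE 0.20, adjusted p = 0.0506 from limma), where the arrays read 7.95, 8.67 and 8.37. Probe set 1427165_at had log2 fold changes of 0.66 in OVA and 0.51 in OVA/PM (adjusted p = 0.0534 and 0.0976 from limma). The s suffix marks probe sets that can bind several transcripts. Probe sets of 1 gene read the same RNA extracts and are not separate replicates, and both comparisons share the Control arrays.

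**Figure D2:**
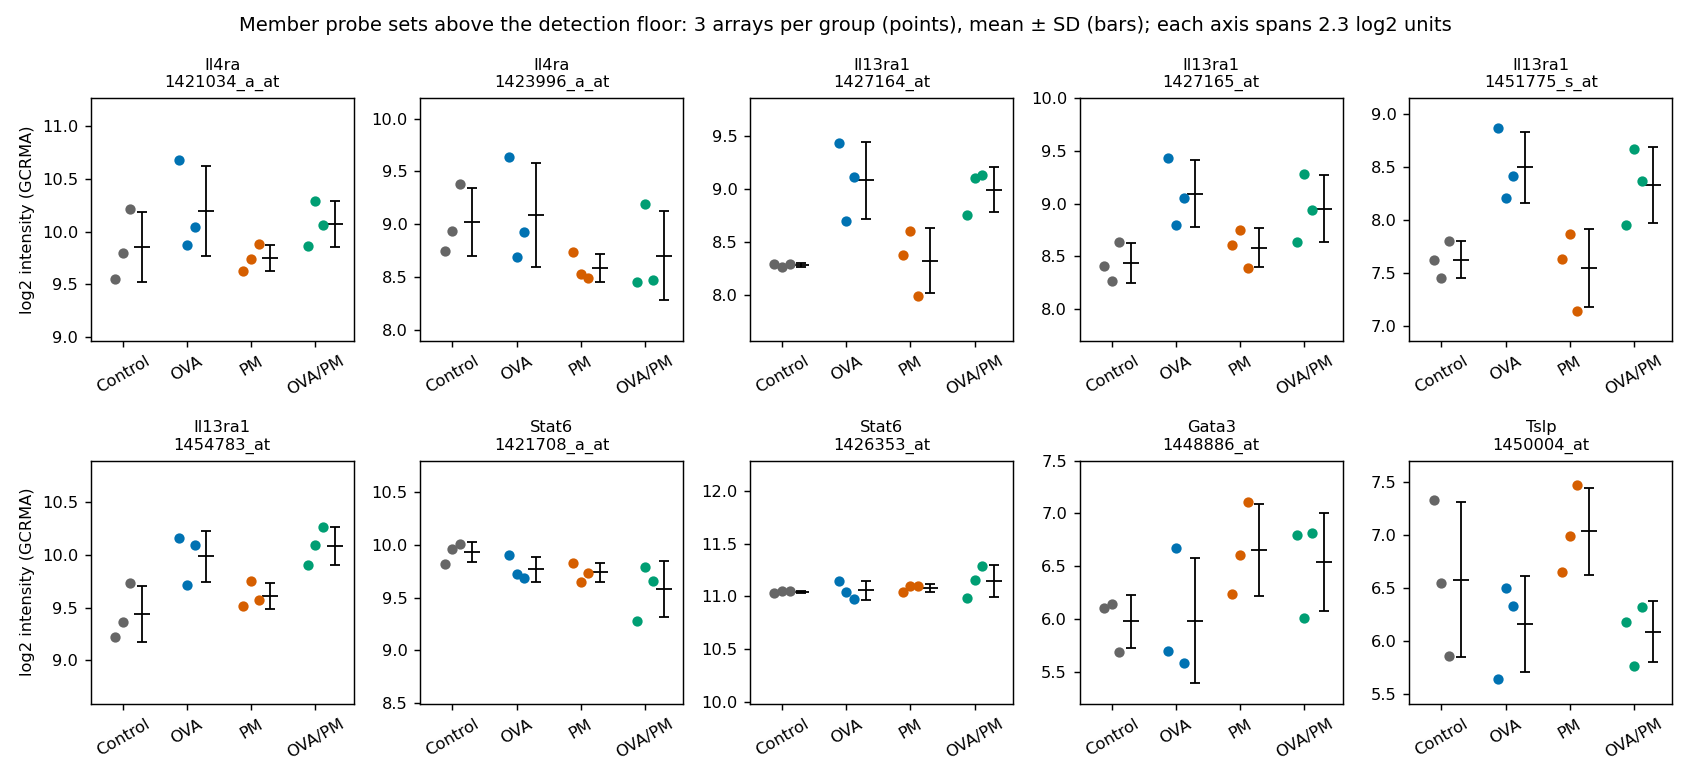
Log2 intensity (y axis, spanning 2.3 log2 units in each panel) of the 10 member probe sets above the floor, by group, with a point for each of 3 arrays and a bar for the mean ± SD. The 4 Il13ra1 panels show OVA and OVA/PM means of 8.33 to 10.08 above Control means of 7.63 to 9.44, while both Stat6 panels stay within a range of 0.31 and 0.73.

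These counts stand beside a large background. In OVA against Control 2 of the 10 probe sets were called (adjusted p under 0.05), both of Il13ra1, while 19.2% of all probe sets tested were called. In OVA/PM against Control 2 of 10 were called against 21.7%. The arrays of the compared groups did not overlap for 3 of 10 in OVA against Control, where 46.5% of all probe sets did not, and for 5 of 10 in OVA/PM against Control, where 44.5% did not. The share called is near that of all probe sets, so these counts are no result about the members as a set, and the Il13ra1 calls stand among 1953 probe sets called higher in OVA and 2449 in OVA/PM. The Il13ra1 call of 1427164_at in OVA/PM held when any 1 array was left out, except Control replicate 2 (adjusted p = 0.0512 from limma). Without OVA/PM replicate 3, the array with the unusual hybridization controls, its log2 fold change was 0.65 (adjusted p = 0.0351 from limma), while that of 1454783_at was 0.56 and no longer passed (adjusted p = 0.0966 from limma). The call of 1454783_at was also lost without Control replicate 1 or 2 and without OVA/PM replicate 1 or 2. Both OVA calls were lost without any 1 Control array and without OVA replicate 1 or 3, with adjusted p of 0.0507 to 0.114 from limma, and the log2 fold changes stayed between 0.63 and 0.96 there. They were also lost when all probe sets were tested without the filter (adjusted p = 0.077 for 1427164_at and 0.0705 for 1451775_s_at from limma), as was the OVA/PM call of 1454783_at (adjusted p = 0.0807 from limma). With the replicate block both OVA calls were lost (adjusted p = 0.0747 and 0.0685 from limma). Without OVA/PM replicate 3 the other 2 Il13ra1 probe sets were at 0.68 (1451775_s_at) and 0.52 (1427165_at, adjusted p = 0.117 and 0.173 from limma). The remaining log2 differences from Control without that array were 0.22 and -0.21 for the Il4ra probe sets, 0.03 and -0.40 for the Stat6 probe sets (leading first), 0.43 for Gata3 and -0.61 for Tslp, none of them called.

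Markers of macrophages and T cells moved in the same groups, beside 11.3% of all genes called higher in OVA and 13.9% in OVA/PM. The summed linear intensity of 5 macrophage markers was 4824 to 5843 on the Control arrays, 9225 to 13560 on the OVA arrays, 5056 to 7025 on the PM arrays and 8675 to 14228 on the OVA/PM arrays, and 3 and 4 of the 5 rose in OVA and OVA/PM against Control. For the 8 T cell markers with a probe set the sum was 516 to 1201, 1813 to 2557, 868 to 1010 and 1873 to 2365 in the same order, with 5 of 7 and 6 of 8 tested genes higher. Among the called, Cd5 and Zap70 in OVA, and these and Cd4 in OVA/PM, entered the test through the exposed arrays alone. Their calls are therefore no support for a rise. The sum of 3 endothelial markers was lower, at 14123 to 17745 in OVA and 13997 to 16646 in OVA/PM against 22523 to 26648 in Control. Of the 3 B cell and 5 natural killer cell markers tested, 0 and 1 rose in OVA, and 1 and 3 in OVA/PM. The natural killer cell sum was higher than in Control (248 to 454) in all 3 exposed groups, at 504 to 645 in OVA, 655 to 906 in PM and 657 to 836 in OVA/PM, with a median log2 fold change of 0.65 in OVA and 1.03 in PM. Of 4 fibroblast markers 2 rose in OVA and 1 in OVA/PM. The eosinophil markers Ccr3, Epx and Prg2 and the mast cell markers Mcpt4 and Ms4a2 lay under the level on every array. The fourth eosinophil marker, Siglecf, was not called against Control in any group, and 1 of 3 mast cell markers tested was lower in OVA/PM. Of 6 lung epithelial and 6 striated muscle markers, 0 were called in OVA, and 2 and 3 were lower in OVA/PM. The mast cell marker Tpsb2 and the muscle markers Tnnt3 and Myot, called lower there, entered that test through the Control arrays alone. In PM against Control 0 genes of these 10 marker lists were called, where 0.0986% of all genes were called higher. In whole lung more cells of a type and more RNA per cell cannot be told apart, and the part of these shifts in the rise of Il13ra1 was not tested.

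Stat6, the transcription factor that the receptor activates, kept close values. Its leading probe set (1426353_at) had means of 11.04 ± 0.02 in Control, 11.06 ± 0.08 in OVA, 11.08 ± 0.03 in PM and 11.15 ± 0.15 in OVA/PM (log2 intensity, SD, n = 3). The 95% intervals of its log2 fold change were -0.18 to 0.20, -0.13 to 0.20 and -0.15 to 0.35 against Control, so the largest rise that they allow is 1.28-fold. The second probe set (1421708_a_at) read 9.82, 9.96 and 10.01 in Control and 9.28, 9.79 and 9.66 in OVA/PM. All 3 OVA/PM arrays lay under the Control arrays, and the difference of -0.36 (SE 0.15) did not pass (adjusted p = 0.139 from limma). The 2 probe sets of Stat6 thus had differences of opposite sign in OVA/PM, neither of them past the threshold.

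Gata3, the transcription factor that directs T helper type 2 differentiation and is also used by innate lymphoid cells and other T cells, read 6.11, 6.14 and 5.69 in Control and 5.70, 6.67 and 5.59 in OVA. It read 6.24, 6.61 and 7.11 in PM and 6.80, 6.01 and 6.82 in OVA/PM. The PM arrays lay above the Control arrays, while the other groups overlapped with Control. The log2 difference in PM was 0.67 (SE 0.24, 95% interval 0.08 to 1.26) and did not pass (adjusted p = 0.562 from limma). In PM against Control 0 of the 10 member probe sets were called against 0.0719% of all, and 2 had an unadjusted p under 0.05, against 8.14% of all. The arrays did not overlap for 2 of 10, Gata3 and the second probe set of Il4ra, against 14.0% of all probe sets. The Gata3 difference was 0.56 (SE 0.25, adjusted p = 0.158 from limma) in OVA/PM and 0.01 (SE 0.31, adjusted p = 0.992 from limma) in OVA.

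Tslp, the alarmin that epithelium releases towards dendritic cells and innate lymphoid cells, fell in OVA/PM against PM. It read 6.65, 6.99 and 7.47 in PM and 6.18, 5.76 and 6.32 in OVA/PM, with no overlap. The log2 difference was -0.95 (SE 0.24, 95% interval -1.52 to -0.37, adjusted p = 0.049 from limma), a level of 0.518 times that in PM. The Control arrays read 7.33, 6.55 and 5.86, a spread that covers all OVA/PM arrays but 1 and 2 of the 3 PM arrays, and the OVA arrays read 5.64, 6.50 and 6.33. Against Control the log2 differences were -0.42 (SE 0.41) in OVA, 0.45 (SE 0.39) in PM and -0.49 (SE 0.37) in OVA/PM, with adjusted p = 0.466, 0.793 and 0.369 from limma, and the intervals reached from -1.42 to 1.41. The call was lost with no filter (adjusted p = 0.126 from limma), with the replicate block (adjusted p = 0.0588 from limma) and with the fit of 4 groups (adjusted p = 0.1 from limma). Leaving out PM replicate 2 or 3 or any 1 of the OVA/PM arrays ended it, at adjusted p of 0.0797 (without OVA/PM replicate 3) to 0.119 from limma, with log2 differences of -0.73 to -1.06.

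In OVA/PM against PM 1 of the 10 member probe sets was called, against 12.9% of all, and the arrays did not overlap for 4 of 10, against 36.5% of all. The other 3 that did not overlap were Il13ra1 probe sets, higher in OVA/PM by 0.47 to 0.78 on the log2 scale with adjusted p of 0.0581 to 0.0878 from limma. Without OVA/PM replicate 3 the log2 differences from PM were 0.38 to 0.76 for the 4 Il13ra1 probe sets, 0.32 and 0.23 for those of Il4ra, -0.01 and -0.20 for those of Stat6 and -0.25 for Gata3, none of them called, and the leading Stat6 probe set had changed sign from 0.07. In OVA against PM 0 of 10 were called by limma against 5.20%, although 5 had an unadjusted p under 0.05 (30.9% of all did). These were the 4 Il13ra1 probe sets, higher by 0.37 to 0.95, and Tslp, at -0.88 (SE 0.29, adjusted p = 0.107 from limma). Their arrays did not overlap for 4 of 10, against 38.6% of all. An exchange of the names OVA and PM would turn the sign of these last values.

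**Figure D3:**
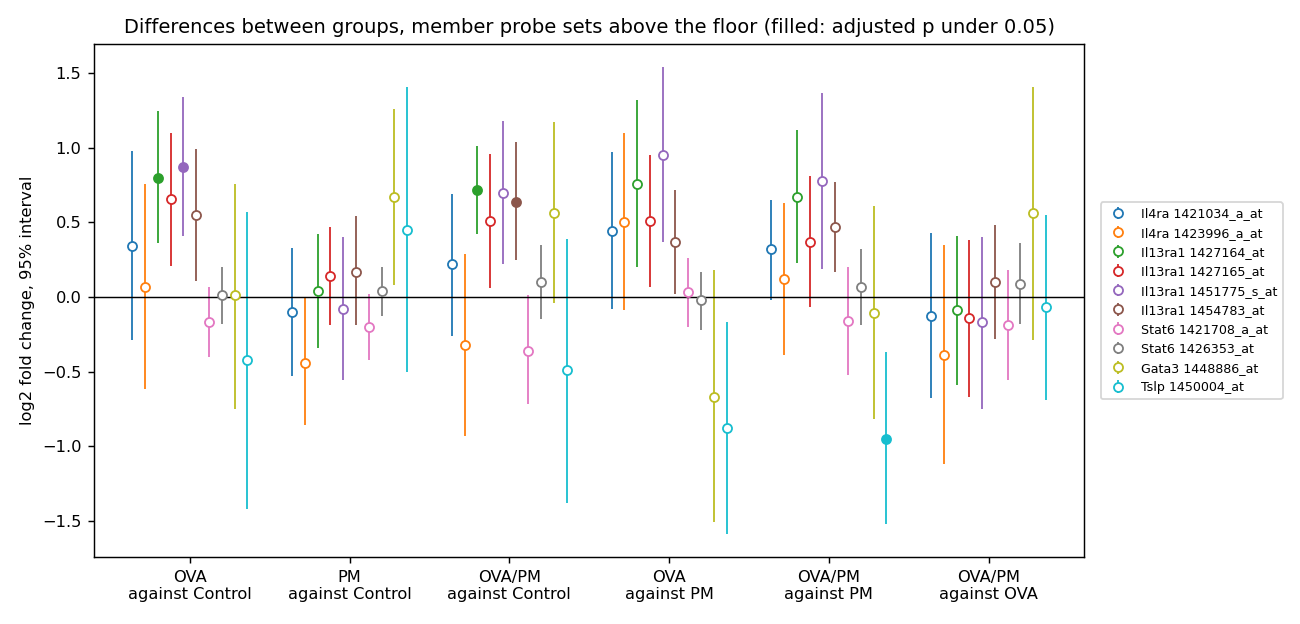
Log2 fold change (y axis) with its 95% interval for the 10 member probe sets above the floor in 6 comparisons (x axis), with filled points where the adjusted p is under 0.05. The 5 filled points are 4 values of Il13ra1 between 0.64 and 0.87 and Tslp at -0.95.

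Under the labels, adding particles to the allergen made no difference among the members that passed the test. With the names OVA and PM exchanged, OVA/PM against OVA would be the allergen added to particles. Particles added to the allergen would then be OVA/PM against PM, given above. In OVA/PM against OVA 0 of the 10 member probe sets were called by limma, against 0.130% of all, and 0 had an unadjusted p under 0.05, against 8.78% of all. The Il13ra1 differences there lay between -0.17 and 0.10, and the widest of their 95% intervals ran from -0.75 to 0.40. The interaction term, which asks whether both exposures together differ from the sum of each alone on the log2 scale, was called by limma for 0 of 10 (0.0264% of all) with 0 at an unadjusted p under 0.05 (6.22% of all). For Tslp it was -0.52 (SE 0.51, adjusted p = 0.934 from limma) and for the leading Il13ra1 probe set -0.08 (SE 0.23, adjusted p = 0.984 from limma). Without OVA/PM replicate 3 no member was called in OVA/PM against OVA or in the interaction. The interaction of Stat6 then changed sign, from 0.05 to -0.02 (leading probe set) and from 0.01 to -0.03.

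Genes that act next to the members were described by lists, with 1 leading probe set per gene. Over all genes 11.3% rose and 7.58% fell in OVA, 0.0986% rose and 0 fell in PM, and 13.9% rose and 9.74% fell in OVA/PM, with medians of 0.00, 0.03 and 0.01 (log2 fold change against Control). The alarmins and their receptors rose in 3 of 5 tested genes in OVA (median 0.57) and in 3 of 5 in OVA/PM (median 0.68), and in 0 of 5 in PM (median 0.05). Il33, the alarmin of injured epithelium, read 10.49 to 10.89 in Control, 11.24 to 12.08 in OVA, 11.12 to 11.29 in PM and 12.31 to 12.62 in OVA/PM. Crlf2, the specific chain of the TSLP receptor, was higher by 0.57 (SE 0.11, adjusted p = 0.023 from limma) in OVA and by 0.68 (SE 0.11, adjusted p = 0.00868 from limma) in OVA/PM. Il7r, its second chain, which lymphocytes also use for IL-7, was higher by 1.98 (SE 0.24, adjusted p = 0.011 from limma) and 2.52 (SE 0.27, adjusted p = 0.00259 from limma). In OVA/PM against PM, Crlf2 was higher by 0.62 and Il7r by 2.56 (adjusted p = 0.00994 and 0.00102 from limma). In the same comparison 5 of 8 T cell markers and 2 of 5 macrophage markers rose, beside 9.13% of all genes. The part of these markers in the Crlf2 and Il7r values was not tested. Of these T cell markers, Cd4 and Cd5 entered the test through the OVA/PM arrays alone. Il25 and the receptor chain Il17rb were at the floor, and Il1rl1 was not analysed here. The OVA/PM calls of Il33, Crlf2 and Il7r held without any 1 array, while in OVA they were lost for 5, 4 and 1 of the 6 arrays left out in turn.

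**Figure D4:**
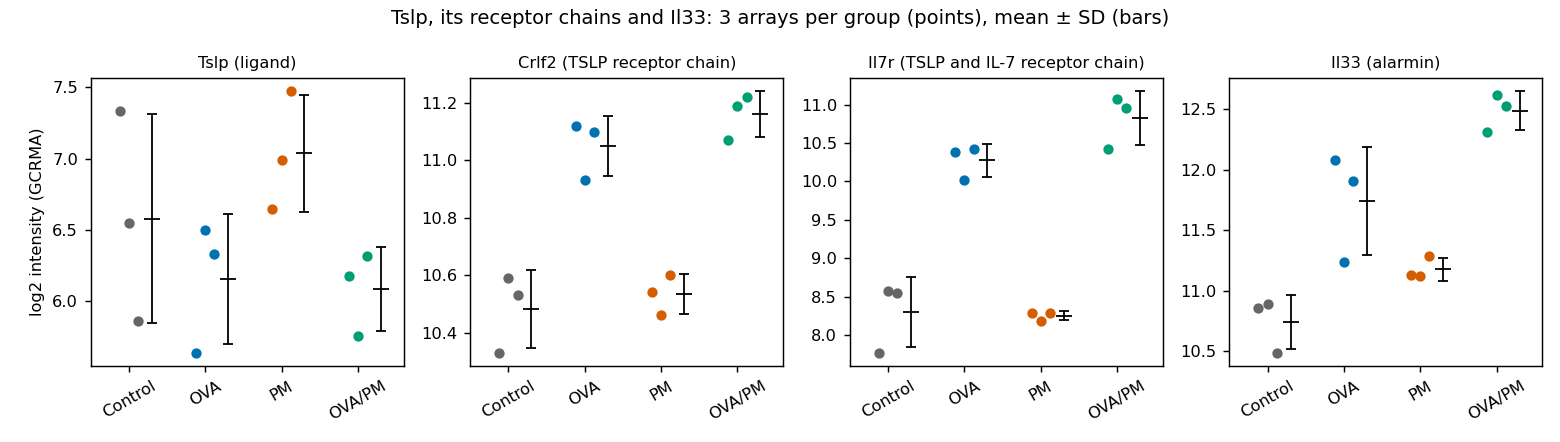
Log2 intensity (y axis, a separate scale in each panel) of Tslp, the TSLP receptor chains Crlf2 and Il7r and the alarmin Il33, by group, with a point for each of 3 arrays and a bar for the mean ± SD. Crlf2, Il7r and Il33 lie higher on all OVA and OVA/PM arrays than in Control, except that Il33 overlaps between OVA and PM, while Tslp does not rise there.

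Among other type 2 cytokines and cytokine receptors 4 of 7 tested genes rose in OVA (median 1.02) and in OVA/PM (median 1.13), and 0 of 6 in PM (median 0.26). Csf2rb, the beta chain shared by the receptors for IL-5, IL-3 and GM-CSF, and Csf2rb2, the mouse beta chain specific to IL-3, were higher by 2.20 and 2.66 in OVA/PM (adjusted p = 0.0017 and 0.00405 from limma) and by 1.90 and 2.42 in OVA (adjusted p = 0.0151 and 0.0149 from limma). Csf2ra, the GM-CSF specific chain, was higher by 0.87 in OVA and 0.89 in OVA/PM, and Il2rb, a chain of the receptors for IL-2 and IL-15, by 1.02 and 1.13. The IL-5 specific chain Il5ra was at the floor, as were Il3, Il9, Il10, Il31, Il9r and Il2ra, so of the IL-5 receptor the shared chain alone was detected. The OVA/PM calls of Csf2rb and Csf2rb2 held without any 1 array, while those of Csf2ra and Il2rb were lost for 2 and 5 of the 6 arrays left out in turn. The OVA calls were lost for 2 (Csf2rb), 1 (Csf2rb2), 5 (Csf2ra) and 5 (Il2rb) of the 6.

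Of the Janus kinases, STATs and adaptors 0 of 9 rose and 1 fell in OVA, 0 changed in PM, and 2 rose and 1 fell in OVA/PM (medians 0.07, 0.02 and 0.01). Irs2, an adaptor that docks on the IL-4 receptor, fell by 0.59 in each of OVA and OVA/PM on the log2 scale (adjusted p = 0.0191 and 0.0134 from limma), while Jak2 and Stat5a rose by 0.48 and 0.54 in OVA/PM. Of 10 tested genes for feedback on STAT6 signalling 2 rose and 1 fell in OVA, 0 were called in PM, and 5 rose and 0 fell in OVA/PM (medians 0.10, -0.01 and 0.45). Those with the largest rises in OVA/PM were Socs3, a suppressor of cytokine signalling (1.29), and the phosphatases Ptpn6 (1.10), Ptpn2 (1.07) and Ptpn1 (0.58). In OVA the called ones were Ptpn6 (1.29), Ptpn2 (0.92) and Pias1 (-0.41). Socs1, the family member best known for restraining STAT6, was at the floor. Of 10 tested transcription factors of T helper type 2 cells other than Gata3, 2 rose and 1 fell in OVA, 0 were called in PM, and 4 rose and 1 fell in OVA/PM (medians 0.11, 0.08 and 0.26). Irf4, Batf and Nfatc2, all also used outside that lineage, rose by 2.05, 1.52 and 0.90 in OVA/PM, and Notch1 fell by 0.48. Of 6 T helper type 1 genes tested 1 rose (Ifngr2, 0.99) and 1 fell (Ifngr1, -0.34) in OVA, and 3 rose (Stat4 1.66, Cxcr3 1.41 and Ifngr2 0.95) and 1 fell (Ifngr1, -0.55) in OVA/PM, with medians of 0.76 and 0.74. In PM 0 of 5 were called (median 0.22), and Ifng was at the floor. Of the genes called in these 4 lists, Socs3, Ptpn2, Irf4, Batf and Nfatc2 kept their OVA/PM calls without any 1 array, and every other call named here, all those of OVA included, was lost for at least 1 array. Without OVA replicate 3, 0 genes rose in OVA in any of the 6 lists described so far. Without Control replicate 2 the OVA/PM rises were 2 of the other cytokine receptors, 0 of the Janus kinase list, 2 of the feedback list, 3 of the T helper type 2 factors and 0 of the T helper type 1 genes. Stat4 and Cxcr3 entered the OVA/PM test through the OVA/PM arrays alone.

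Some genes known to be switched on by STAT6 rose in each of the 3 exposed groups. Over all 22 genes of the list, with every probe set tested and no filter, 8 rose in OVA, 3 in PM and 16 in OVA/PM, and 0 fell, where 2.76%, 0.00666% and 4.61% of all probe sets rose. Their median log2 fold changes were 1.17, 0.91 and 2.38, against 0.02, 0.02 and 0.04 over all probe sets. The list is not independent of these data, since the study itself reports Clca1, Itln1, Tff2 and Retnla as changed by OVA and PM on these arrays. It also holds 1 leading probe set per gene, while all probe sets include 46.9% at the floor, so the shares are not a like comparison. With the filter 9 of 14 rose in OVA, 5 of 15 in PM and 15 of 18 in OVA/PM, but 4, 5 and 8 of those tested were kept through the exposed arrays alone and so had to differ. Among the other 10 tested in each comparison 5, 2 and 8 rose. Many other signals also act on these genes, and some are leukocyte products. Retnla, a product of alternatively activated macrophages and airway epithelium, read 10.22, 10.44 and 10.26 in Control, 14.34, 13.67 and 14.08 in OVA, 14.26, 14.21 and 14.48 in PM, and 14.69, 14.70 and 14.75 in OVA/PM. Clca1 lay at or under 2.40 in Control, so its folds are lower bounds, taken from the group mean against the level. It was at least 10.8-fold higher in OVA, at least 656-fold in PM and at least 830-fold in OVA/PM. Itln1, an intelectin of mucous cells, was at least 29.3-fold, 157-fold and 287-fold higher. Chil4, a chitinase-like protein, was at least 75.2-fold higher in PM and 75.4-fold in OVA/PM and lay under the level on the OVA arrays. Muc5ac, the gel-forming airway mucin, was at least 26.8-fold higher in OVA/PM. Clca1, Itln1, Chil4 and Muc5ac entered the filtered tests through the exposed arrays alone, so no p-values are given for them. With every probe set tested and no filter, the calls of these genes in the groups named held, except that of Chil4 in PM. Tff2, a trefoil peptide of mucous epithelium, had log2 fold changes of 3.64 in OVA and 4.33 in PM (adjusted p = 0.00373 and 0.0188 from limma). All 15 OVA/PM calls of this list held without any 1 array, as did those of Retnla, Clca1 and Itln1 in OVA and in PM. Of the 15, 7 are of genes kept through the OVA/PM arrays alone. Without OVA replicate 3 the OVA rises of this list were 4 in place of 9, and the calls of Clec10a, Ccl22, Fcer2a, Agr2 and Ch25h were lost. The PM calls of Tff2 and Chil4 were lost for 5 and 4 of the 6 arrays left out in turn, with 3 to 6 rises in the list.

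**Figure D5:**
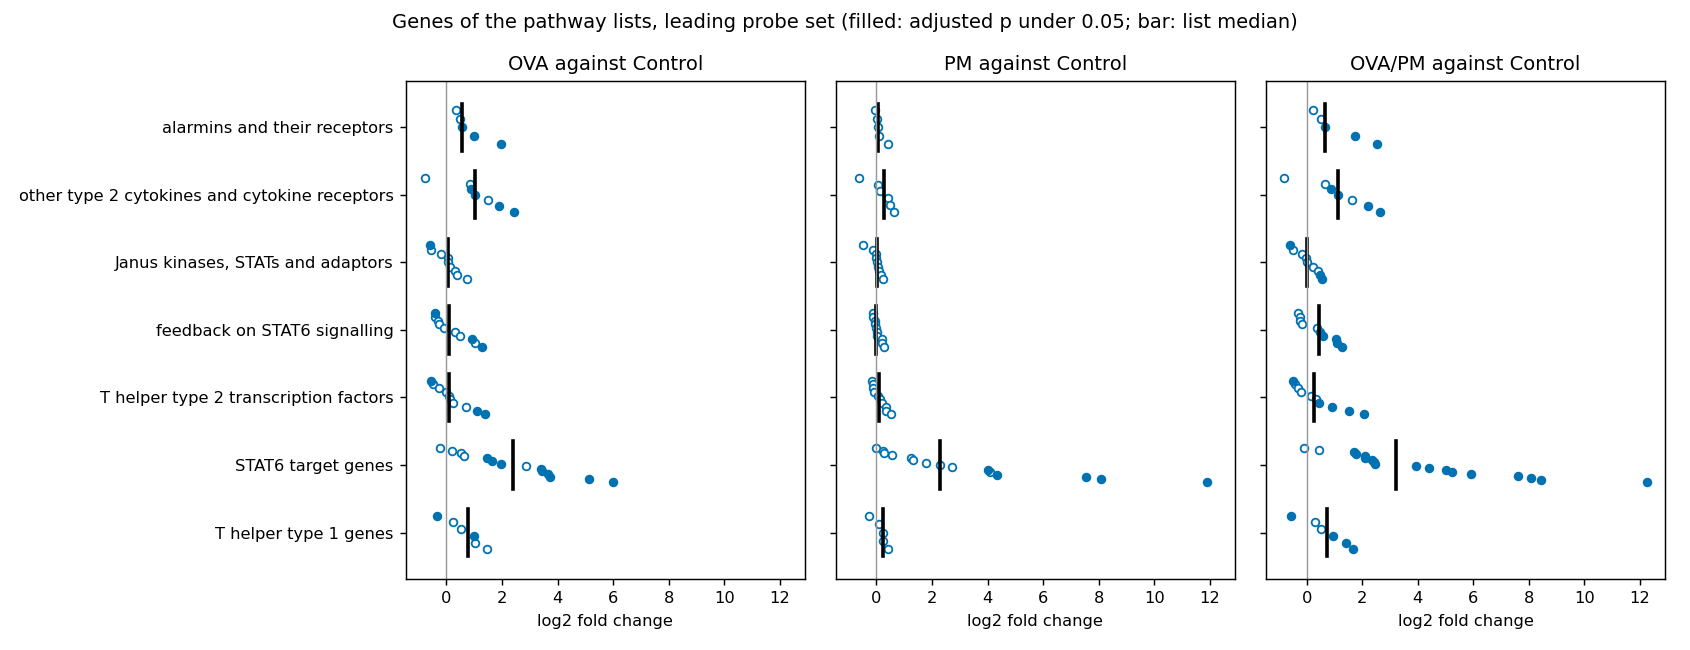
Log2 fold change against Control (x axis) of the tested genes of 7 pathway lists (rows) in OVA, PM and OVA/PM (panels), with filled points where the adjusted p is under 0.05 and a bar at the list median. Of the STAT6 target genes plotted, 4, 5 and 8 passed the filter through the exposed arrays alone, so their positions and the list's bar are not to be set against those of the other lists.

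Over the 12 arrays the 4 detected probe sets of Il13ra1 followed each other (Pearson r of 0.83 to 0.97), and the 2 of Il4ra did so at r = 0.76 and the 2 of Stat6 at r = 0.12. The leading probe set of Il4ra ran opposite to Tslp (r = -0.80) and with that of Il13ra1 (r = 0.74). These values describe 12 arrays in 4 groups that share their normalization and carry the group differences. With each group's mean taken off first, r was 0.63 to 0.96 for the Il13ra1 probe sets, 0.87 for those of Il4ra and 0.69 for those of Stat6. In the same way the leading probe set of Il4ra had r = -0.72 with Tslp and r = 0.75 with that of Il13ra1. The genes most like Il13ra1 over the 12 arrays were Parp11, Sp100 and Nipsnap3b (each r = 0.97), and those most like Il4ra were Mxd1, Csf1 and Mapkapk2 (each r = 0.92). Tslp was followed most closely by Dtna (r = 0.97), Zmym5 and Ak3 (each r = 0.94), Gata3 by Slc30a7, Nmt2 and Arid2 (each r = 0.91), and Stat6 by Cep350 (r = 0.91), Septin11 and Abi1 (each r = 0.89). Each is the highest of a search among the probe sets kept over all 4 groups, and how high r would run without any link was not tested. The leading Stat6 probe set spans only 0.31 log2 units over the arrays.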

How the data were processed

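Lung RNA of 4 groups of 3 arrays was measured, 1 lung sample each, and p-values measure the spread between these samples. The authors deposited log2 intensities of 45101 probe sets, made with GCRMA, which corrects for background by probe composition, normalizes the arrays together and summarizes probes. The processing notes also name MAS5, and versions are not given in the sources used here. From these values each pair of groups was compared with limma 3.58.1 in R 4.3.3, with Benjamini-Hochberg adjustment over all probe sets kept (22246 to 22538), and the interaction was taken from a fit of all 4 groups (22688 kept). Only probe sets with 3 of 3 arrays at or above 4.93 in a compared group were tested, a filter used in place of the study's detection calls, and 64 control probe sets were left out. SAM, the method of the study, was not run here. The limma step was tested on simulated data. No depth exists for arrays, and their number limits the precision. Of a gene's probe sets, the one of highest mean led in lists. All member probe sets, up to 4 called genes of each list in each comparison with Control by size of change, and the 3 genes most correlated with each detected member are named. Genes named at the floor, and the Crlf2 and Il7r values against PM, were chosen after their values were seen. Members and lists were chosen with earlier results of these data known. Alternatives were no filter, a filter at 8.65, an offset of 16 on the linear scale, further quantile normalization, a replicate block, the fit of 4 groups, an intensity trend, the probe set of lowest p, and leaving out each array. Lists without the filter or 1 array were added after seeing the data. Symbols and promoters came from RefSeq tables for GRCm38.p6, and symbols from the array's annotation were unchanged by the look-up.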

Additional observations from a re-analysis of the deposited data

How the results depend on the processing

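No member value with an unadjusted p under 0.05 changed direction: of the 239 recomputed values of 19 such differences 189 kept their side of the threshold, 29 lost it and 21 gained it. Of 695 recomputed values of the other 51 member differences 56 changed sign, and 1 was called (Gata3 in OVA/PM against Control, without OVA/PM replicate 2). The cause of the shifts below was not tested, other than that fewer arrays or more probe sets enter.

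Member calls: in OVA against Control (2) there were 0 with no filter and 4 with the fit of 4 groups, and 0 to 4 with 1 array left out. In OVA/PM against Control (2) there was 1 with no filter, and 0 to 2 with 1 array left out. In OVA/PM against PM (1) there were 0 with no filter, 2 with the filter at 8.65, with further quantile normalization, with the fit of 4 groups (both of Il13ra1, without Tslp) and with the intensity trend, and 0 to 1 with 1 array left out. In OVA against PM (0) there were 2 with the fit of 4 groups and 0 to 3 with 1 array left out.

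Calls over all probe sets: with no filter there were 2432 in OVA against Control (4326), 6 in PM against Control (16), 10 in OVA/PM against OVA (29) and 4 in OVA against PM (1165). The fit of 4 groups called 38 in PM against Control and 3295 in OVA against PM. In OVA against PM the filter at 8.65 called 1935 and the intensity trend 1795, and in the interaction (6) that filter called 3. With 1 array left out the counts were 407 to 5284 in OVA against Control, 3 to 11 in PM against Control, 2188 to 4491 in OVA/PM against Control (4899), 9 to 63 in OVA/PM against OVA, 1367 to 1870 in OVA/PM against PM (2894), 4 to 3587 in OVA against PM and 4 to 11 in the interaction.

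Replicate numbers did not pair the arrays: the median correlation of the 18 pairs of equal number was -0.063, 3 pairs exceeded 0.1, and 2 of 12 arrays were closest to one of their own number. With the replicate block, probe sets called were 89 in OVA against Control, 4 in PM against Control, 1377 in OVA/PM against PM and 711 in OVA against PM, and member probe sets called were 0 in OVA against Control and 0 in OVA/PM against PM.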
